A study of Mus musculus with 6 samples.

Results

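The angiogenic ligands described here are 10 secreted factors that act on blood vessels: Vegfa, Vegfb, Vegfc, Pgf, Angpt1, Angpt2, Angptl4, Apln, Fgf1 and Fgf2. They were chosen by gene symbol in the platform annotation, and all 10 of 10 were measured, by 18 probe sets out of 43057 on the array. A probe set is a group of short oligonucleotides that reads 1 transcript or a part of it. Where several read the same gene, the one that was brightest on average over all 6 arrays stands for it, which gave 17720 genes in all.

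RNA from mouse adipocytes was hybridized to oligonucleotide arrays, 1 array per sample, in 3 groups of 2. Marrow-derived adipocytes were flow sorted from the floating adipocyte fraction of gonadal fat of mice given a bone marrow transplant, by a marker that the donor cells carried. Replicate 1 used green fluorescent protein (GFP), and replicate 2 used the enzyme beta-galactosidase (LacZ). White adipocytes came from gonadal fat and brown adipocytes from the fat pad between the shoulder blades, which the labels call intrascapular, after the white fat there was removed. The labels of all samples state sorts of about 5000 cells and a pool of 6 sorts or more for each sample, so a value averages over sorts and possibly over animals. The RNA was amplified before labelling. The 2 marrow-derived samples differ in donor marker, and the labels give no genotype, strain, sex, age, dose or promoter of the marker transgenes for any group. The labels call replicates biological without naming the animals, so the spread behind each p-value is that of these samples alone, and some of it may be technical.

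Vessels in fat grow and regress with the tissue, and adipocytes make several of the signals that govern this. Vascular endothelial growth factors (Vegfa, Vegfb, Vegfc) and placental growth factor (Pgf) bind the receptor tyrosine kinases Flt1, Kdr and Flt4 on endothelial cells. Angiopoietins act on the endothelial receptor Tek: Angpt1 activates it and stabilizes vessels, while Angpt2, made by endothelial cells themselves, opposes this in many settings and loosens them. Apelin (Apln) acts on the receptor Aplnr and is typical of sprouting endothelium, and the fibroblast growth factors Fgf1 and Fgf2 act on the Fgfr receptors of many cell types. Angptl4 is a relative of the angiopoietins that does not act through Tek and is best known in fat as an inhibitor of lipoprotein lipase.

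All values are log2 expression values as deposited, so a difference of 1 is a 2-fold difference. A value after ± beside a difference is the standard error (SE) from limma, a linear model fitted to all genes, and an adjusted p is from the same fit over 17720 genes. A gene is called higher or lower where that adjusted p is under 0.05. Array medians over all probe sets ran from 5.46 to 5.72, and their 25th percentiles ran from 3.41 to 3.55. The deposited values carry no detection call and no zeros, so low values cannot be told from background. Levels of different genes are not compared, because probe sets differ in brightness. Adipoq, encoding adiponectin, read 12.70 (GFP) and 11.86 (LacZ) in marrow-derived adipocytes and 13.01 or more on the white and brown arrays. Other adipocyte markers, and those of endothelial cells, macrophages and further cell types, are described below. Ucp1, encoding the uncoupling protein of brown fat, read 13.53 and 13.58 on the brown arrays and at most 7.68 elsewhere. Across all genes the GFP and LacZ arrays differed by a median of 0.28, the white pair by 0.23 and the brown pair by 0.21 (absolute log2 difference).

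The ligands fell into groups that moved in opposite directions. Marrow-derived adipocytes had higher Angpt2, Pgf and Apln, and lower Vegfa, Vegfb and Angpt1, than both white and brown adipocytes. Fgf2 was higher in white adipocytes than in both others, Fgf1 varied between the marrow-derived arrays, and Angptl4 did not pass in any comparison. Against white arrays 3 ligands were called higher and 4 lower, where 25.8% of all genes were called (12.2% higher and 13.6% lower). Against brown arrays 3 were called higher and 3 lower, where 20.4% of all genes were called (8.71% higher and 11.7% lower). Between white and brown arrays 1 was higher and 0 lower, where 9.21% of all genes were called (3.87% higher and 5.34% lower). The counts of every gene list below are to be read beside these percentages. The comparisons share the marrow-derived arrays, so the calls against white and against brown are not independent of each other. The median difference over the ligands was -0.55 against white and -0.15 against brown, beside -0.07 and 0.02 over all genes. Arrays of the compared groups did not overlap for 4 ligands above and 5 below white, where 64.3% of all genes did not overlap (28.5% above and 35.8% below). Against brown this held for 3 above and 5 below (all genes 65%, with 33% above and 32% below). In white against brown it held for 3 above and 4 below (all genes 62.2%, with 32.4% above and 29.7% below).

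**Figure D1:**
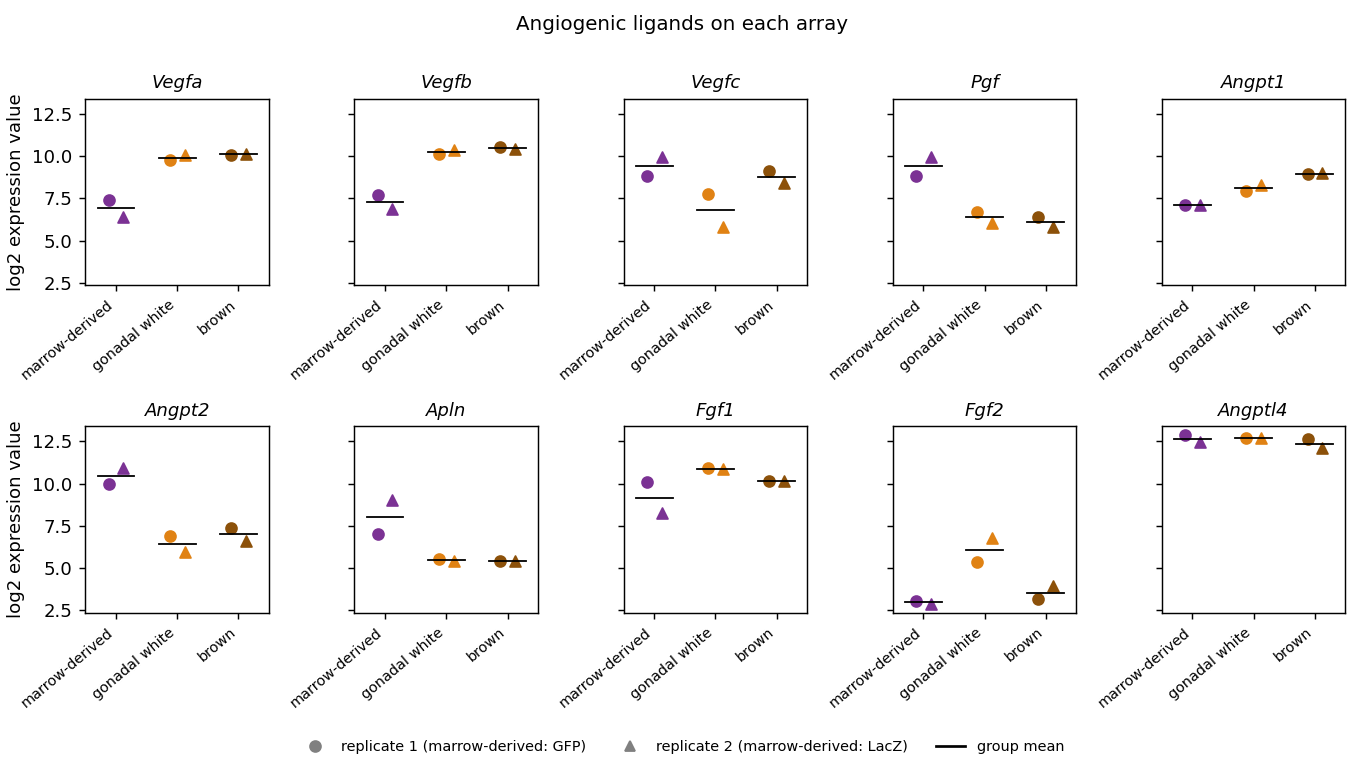
Log2 expression value (vertical axis) of the 10 ligands on each of the 6 arrays, with replicate 1 as circles, replicate 2 as triangles and group means as bars. Angpt2, Pgf and Apln sit higher on both marrow-derived arrays than on all others, Vegfa, Vegfb and Angpt1 sit lower, and Fgf2 is highest on the white arrays.

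Promoter sequence is shown for 4 of the ligands, a pair that was lower in marrow-derived adipocytes (Vegfa, Vegfb) and a pair that was higher (Pgf, Apln), so that the regions can be set side by side. Each is the 250 bases before a RefSeq transcription start (build GRCm38.p6), read 5′ to 3′ on the gene's strand. Capitals mark matches to ACGTG or GCGTG, the core letters bound by hypoxia-inducible factors, on either strand, so that a match on the opposite strand reads CACGT or CACGC.
Vegfa, chr17:46032378-46032627, minus strand: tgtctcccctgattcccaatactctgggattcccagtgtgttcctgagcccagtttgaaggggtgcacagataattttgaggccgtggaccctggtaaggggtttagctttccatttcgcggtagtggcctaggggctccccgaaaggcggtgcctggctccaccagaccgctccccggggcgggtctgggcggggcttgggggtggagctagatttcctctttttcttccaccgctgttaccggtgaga
Vegfb, chr19:6987652-6987901, minus strand: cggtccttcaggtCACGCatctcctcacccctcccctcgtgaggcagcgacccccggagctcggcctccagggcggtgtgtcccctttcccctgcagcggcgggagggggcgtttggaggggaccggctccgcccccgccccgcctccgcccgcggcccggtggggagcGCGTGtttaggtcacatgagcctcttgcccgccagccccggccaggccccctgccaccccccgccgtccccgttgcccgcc
Pgf, chr12:85177314-85177563, minus strand: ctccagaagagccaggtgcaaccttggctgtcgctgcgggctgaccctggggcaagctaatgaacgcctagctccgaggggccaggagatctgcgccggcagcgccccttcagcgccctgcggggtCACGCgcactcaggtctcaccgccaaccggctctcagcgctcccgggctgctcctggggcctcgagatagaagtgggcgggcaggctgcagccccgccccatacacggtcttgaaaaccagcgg
Apln, chrX:48034854-48035103, minus strand: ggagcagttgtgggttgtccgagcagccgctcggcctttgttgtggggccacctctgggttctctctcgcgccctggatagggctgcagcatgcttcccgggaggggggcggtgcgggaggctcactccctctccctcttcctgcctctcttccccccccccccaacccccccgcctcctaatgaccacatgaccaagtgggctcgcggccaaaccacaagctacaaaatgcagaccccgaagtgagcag

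The Vegfb window held 2 matches to GCGTG and the Pgf window 1, while the Vegfa and Apln windows printed here held 0 of either core. Sequence outside these 250 bases was not searched, so a count of 0 does not show that a gene lacks such an element. A second RefSeq start of Vegfa lies downstream on the same strand, and the 250 bases before it held 1 match to each core. That window (chr17:46025164-46025413) lies inside the Vegfa gene (46016993-46032377), so its matches are in sequence transcribed from the first start. Both Pgf windows likewise lie inside the Pgf gene, and the Fgf2 window lies partly inside the Fgf2 gene. The second Pgf window held 0, Vegfc held 0 and Fgf2 held 1 match to GCGTG. For all 32851 RefSeq windows of the same length, 16.6% held ACGTG, 28.2% held GCGTG and 38.6% held at least 1 of them, so the matches are common letters and are given as a description. The PPAR response repeat of the DR1 type, with any base as spacer, was searched on both strands and stood in 0 of the ligand windows and in 0.0335% of all windows. Of the 10 ligands, 6 had a window in the RefSeq table. Angpt1, Angpt2, Angptl4 and Fgf1 had none, so no search covers them.

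Vegfa, the main growth and survival signal for endothelium, read 7.43 (GFP) and 6.42 (LacZ) in marrow-derived adipocytes. On the white arrays it read 9.77 and 10.07, and on the brown arrays 10.10 and 10.15. Both marrow-derived arrays lay below all 4 others, by at least 2.33 in any pairing of arrays. The difference was -2.99 ± 0.36 against white (7.96-fold lower, adjusted p = 0.00662) and -3.20 ± 0.36 against brown (9.18-fold lower, adjusted p = 0.00656). A second Vegfa probe set, chosen by the same annotation, gave -3.26 ± 0.36 and -2.96 ± 0.36.

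Vegfb, which binds Flt1 and is linked to fatty acid uptake in tissues rich in mitochondria, followed Vegfa closely. Its values were 7.72 (GFP) and 6.85 (LacZ), then 10.12 and 10.40 on white and 10.55 and 10.46 on brown arrays. The marrow-derived pair lay below the rest with no overlap. The differences were -2.97 ± 0.32 against white (7.85-fold lower, adjusted p = 0.00551) and -3.22 ± 0.32 against brown (9.30-fold lower, adjusted p = 0.0051).

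White and brown adipocytes were close for both factors. White minus brown was -0.21 for Vegfa (95% interval -1.10 to 0.69, adjusted p = 0.762) and -0.24 for Vegfb (-1.05 to 0.56, adjusted p = 0.68). Over the 6 arrays the values of Vegfa and Vegfb correlated at a Pearson r of 0.999, a description of 6 points in 3 groups.

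Angpt1, the ligand that keeps Tek active, read 7.11 and 7.09 on the GFP and LacZ arrays, 7.96 and 8.32 on the white arrays and 8.93 and 8.99 on the brown arrays. The 3 groups did not overlap, with brown highest and marrow-derived lowest. The difference was -1.04 ± 0.19 against white (2.05-fold lower, adjusted p = 0.016) and -1.86 ± 0.19 against brown (3.62-fold lower, adjusted p = 0.00515). White minus brown was -0.82 ± 0.19 and missed the threshold (adjusted p = 0.0584). A second, dimmer Angpt1 probe set gave -0.73 ± 0.52 against white and -1.32 ± 0.52 against brown, neither of which passed when every probe set was tested (adjusted p = 0.371 and 0.14). With the mean of both probe sets the call against white was lost (-0.89, adjusted p = 0.0924).

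Angpt2, the angiopoietin that primes vessels for sprouting or regression, showed the largest rise among the ligands. It read 9.95 (GFP) and 10.92 (LacZ) in marrow-derived adipocytes, 6.92 and 5.93 in white and 7.39 and 6.62 in brown. Every marrow-derived value exceeded every other value by at least 2.56. The difference was 4.01 ± 0.50 against white (16.1-fold higher, adjusted p = 0.00729) and 3.43 ± 0.50 against brown (10.8-fold higher, adjusted p = 0.0125). A second Angpt2 probe set gave 3.32 ± 0.58 and 2.68 ± 0.58. White and brown arrays overlapped (-0.58, 95% interval -1.85 to 0.70, adjusted p = 0.532).

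Pgf, a ligand of Flt1 that acts mainly in vessel growth under stress, had a like pattern. Its values were 8.83 (GFP) and 9.97 (LacZ), against 6.70 and 6.04 on white and 6.39 and 5.80 on brown arrays. The lowest marrow-derived value lay 2.13 above the highest white value. The difference was 3.03 ± 0.46 against white (8.15-fold higher, adjusted p = 0.0109) and 3.31 ± 0.46 against brown (9.89-fold higher, adjusted p = 0.0109). White minus brown was 0.28 (95% interval -0.89 to 1.45, adjusted p = 0.751).

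Apln, a peptide hormone that fat cells and sprouting endothelium secrete, was read by 1 probe set. It stood at 7.0 (GFP) and 9.01 (LacZ). White arrays read 5.56 and 5.42 and brown arrays 5.42 and 5.44, which are within 0.14 of each other and near the array medians. Such values cannot be told from background, so a fold against them is uncertain. Both marrow-derived arrays lay above, but they differed from each other by 2.01, more than any other ligand. The difference was 2.51 ± 0.63 against white (5.71-fold higher, adjusted p = 0.0399) and 2.57 ± 0.63 against brown (5.94-fold higher, adjusted p = 0.0444). Without the LacZ array these differences were 1.51 and 1.57. A p-value with 1 marrow-derived array left would hold none of the spread between GFP and LacZ, so none is given. Of 14 alternative settings, 6 lost the call against white and 8 that against brown, with adjusted p up to 0.155 and 0.206.

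**Figure D2:**
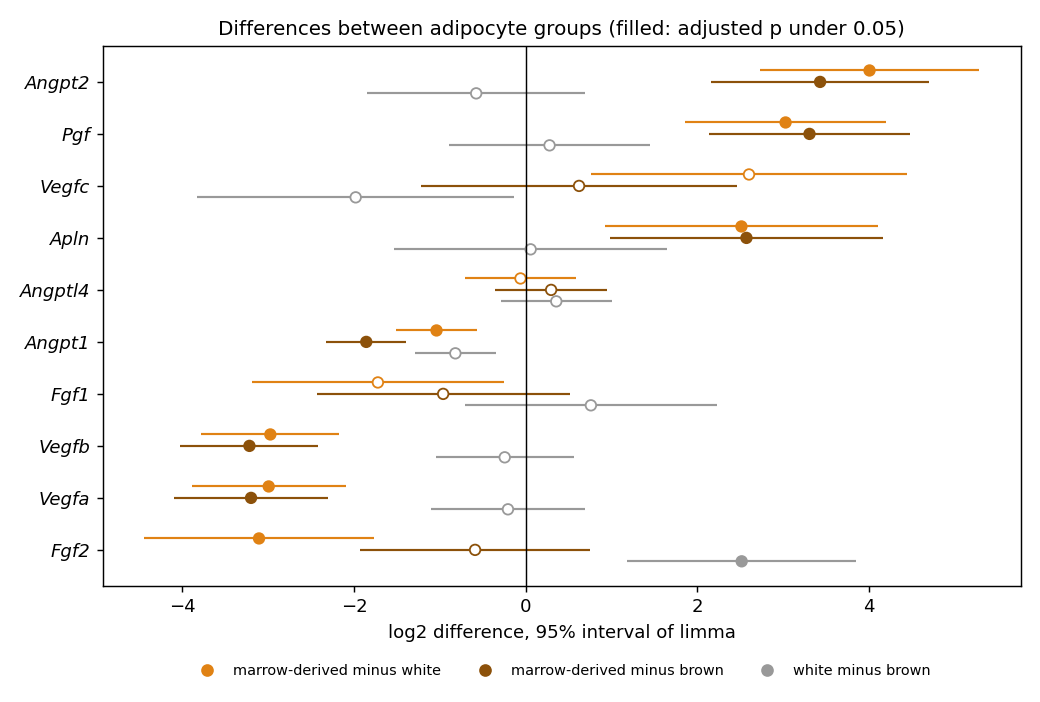
Log2 difference between groups (horizontal axis) for the 10 ligands (rows), with the 95% interval of limma as bars and filled points where the adjusted p was under 0.05. Angpt2, Pgf and Apln lie to the right of 0 and Angpt1, Vegfb and Vegfa to the left in both marrow-derived comparisons, while in white minus brown Fgf2 alone is filled.

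Vegfc, which acts through Flt4 on lymphatic and some blood vessel endothelium, did not pass in any comparison. It read 8.83 (GFP) and 9.96 (LacZ) in marrow-derived, 7.76 and 5.83 in white and 9.10 and 8.44 in brown adipocytes. Marrow-derived and brown values overlapped, and both groups lay above both white arrays, which differed from each other by 1.94. The difference from white was 2.60 ± 0.73 and missed the threshold (adjusted p = 0.054). It passed in 4 of 14 alternative settings, with adjusted p from 0.0246 to 0.184 over all of them. Against brown it was 0.62 (95% interval -1.22 to 2.47, adjusted p = 0.579), and white minus brown was -1.98 ± 0.73 (adjusted p = 0.168). The other Vegfc probe sets, 2 in number, gave 2.67 and 2.54 against white.

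Fgf2, a broad mitogen held in the matrix, read higher on both white arrays than on all others. White arrays read 5.33 and 6.79, while marrow-derived arrays read 3.07 and 2.85 and brown arrays 3.17 and 3.92. Both marrow-derived values and the first brown value lie under the 25th percentile of their arrays, so a fold against them is uncertain. Marrow-derived minus white was -3.10 ± 0.53 (8.60-fold lower, adjusted p = 0.0141), and marrow-derived minus brown was -0.59 (95% interval -1.92 to 0.75, adjusted p = 0.469). White minus brown was 2.52 ± 0.53 (5.72-fold higher, adjusted p = 0.0477).

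Fgf1, an adipocyte factor induced by feeding and known to be needed for fat remodelling, did not pass in any comparison. It read 10.10 (GFP) and 8.25 (LacZ), 10.95 and 10.84 on white arrays and 10.14 and 10.13 on brown arrays. The GFP array lay beside the brown arrays and the LacZ array lay below all others. The difference from white was -1.72 ± 0.58 (adjusted p = 0.0885). Without the GFP array it was -2.64 and without the LacZ array -0.80. Against brown it was -0.96 ± 0.58 (adjusted p = 0.299), -1.88 without the GFP array and -0.04 without the LacZ array. White minus brown was 0.76 ± 0.58 (adjusted p = 0.472).

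Angptl4 did not pass in any comparison. It read 12.89 and 12.45 in marrow-derived, 12.73 and 12.74 in white and 12.64 and 12.11 in brown adipocytes. The marrow-derived arrays overlapped with both other groups. Differences were -0.06 against white (95% interval -0.71 to 0.59, adjusted p = 0.894), 0.30 against brown (-0.35 to 0.95, adjusted p = 0.452) and 0.36 for white minus brown (-0.29 to 1.01, adjusted p = 0.444). Values this high lie near the top of the arrays, whose highest values were 13.91 to 13.97. A second, dimmer Angptl4 probe set gave -0.67 ± 0.34 against white and -0.54 ± 0.34 against brown, neither of which passed when every probe set was tested (adjusted p = 0.214 and 0.323).

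The call counts depended on which arrays set the spread. Against white, leaving out white replicate 2 left 4 of 10 ligands called, with Pgf, Angpt1 and Apln lost (adjusted p = 0.0558, 0.076 and 0.147). Against brown, leaving out either brown array left 0 of 10 called by limma, where 6 had an unadjusted p under 0.05, and the 6 ligands called with all arrays then had adjusted p from 0.0527 to 0.206. No called ligand changed direction in any of the 14 settings that tested it (13 for Fgf2).

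White and brown adipocytes differed in 1 of 10 ligands, Fgf2. At an unadjusted p under 0.05 there were 3 (Vegfc, Angpt1 and Fgf2). The Fgf2 call was lost without white replicate 2 (1.78, adjusted p = 0.0852) and without either brown array (adjusted p = 0.269 and 0.146). It also fell just outside the threshold when 1 of the marrow-derived arrays was left out (adjusted p = 0.0567 each), and Fgf1 was then the 1 ligand called (0.76, adjusted p = 0.0466).

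Within the marrow-derived pair, the LacZ array lay farther from white adipocytes than the GFP array did for all 7 ligands called against white. The same held for all 6 called against brown. Over all called genes the LacZ array was the farther one for 66.3% against white and 60.0% against brown. Angpt2, Pgf and Apln were higher on the LacZ array by 0.96, 1.14 and 2.01, and Vegfa and Vegfb were lower there by 1.01 and 0.88. For Angpt1 and Fgf2 the arrays differed by 0.01 and 0.22, less than the median of 0.28 over all genes. Marker lists differed between these arrays too. The mean log2 value of 12 endothelial markers was 11.30 on the GFP and 11.81 on the LacZ array, that of 6 adipocyte markers 12.16 and 11.29, and that of 11 macrophage markers 11.46 and 8.91. The part of these differences in the ligand values was not tested.

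Endothelial markers moved too, and by more against white than against brown. All 12 of 12 (among them Pecam1, Cdh5 and Erg) were called higher in marrow-derived than in white arrays (12.2% of all genes). Their median difference was 4.02. Their mean log2 value was 11.30 to 11.81 in marrow-derived, 7.14 to 8.15 in white and 10.07 to 10.55 in brown arrays, and the log2 of their summed level was 15.13 to 15.58, 10.99 to 12.15 and 14.04 to 14.47. Against brown, 2 of 12 were called higher (8.71% of all genes), Erg (1.40 ± 0.31) and Vwf (2.54 ± 0.46). The median over all 12 was 1.16, and their arrays did not overlap (33% of all genes in that direction). In white arrays 10 of 12 were lower than in brown arrays (median -2.84, with 5.34% of all genes called lower). White minus brown was -0.58 for Angpt2, 0.28 for Pgf, 0.06 for Apln and -1.98 for Vegfc, none of which passed. In bulk RNA of sorted cells, more cells of a type and more RNA per cell cannot be told apart. The part of endothelial cells in the ligand values was not tested.

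**Figure D3:**
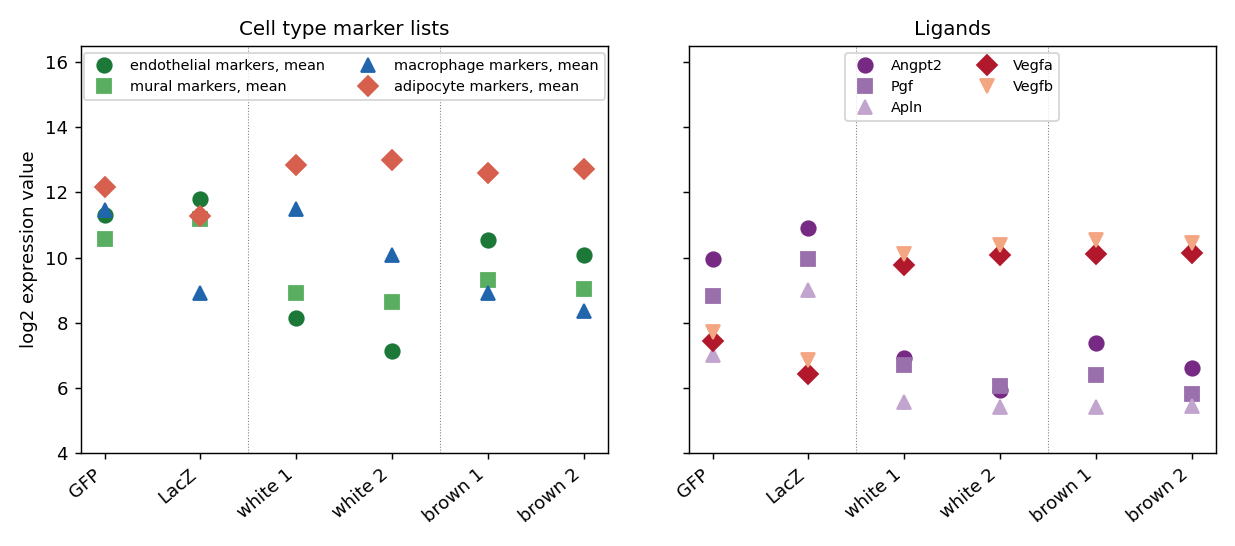
Mean log2 value of 4 cell type marker lists (left panel) and log2 value of 5 ligands (right panel) on each array. Endothelial markers are high on marrow-derived and brown arrays, at 10.07 or more, and lower on white arrays, while Angpt2, Pgf and Apln are higher on both marrow-derived arrays than on the others.

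Markers of endothelial tip cells, the leading cells of a sprout, include Apln and Angpt2 themselves. Of 7 such markers 4 were called higher against white and 4 against brown (12.2% and 8.71% of all genes). Besides Angpt2 and Apln, which repeat the ligand result, these were Esm1 and Pdgfb against white and Esm1 and Nid2 against brown. Esm1, a proteoglycan of sprouting endothelium, read 6.72 and 8.02 in marrow-derived arrays, 3.32 and 3.51 in white and 2.27 and 3.19 in brown. Its differences were 3.96 ± 0.51 (adjusted p = 0.00772) and 4.65 ± 0.51 (adjusted p = 0.00639). The white and brown values lie near or below the 25th percentiles of their arrays, so these sizes are uncertain. Cxcr4 and Kcne3 did not pass in either comparison. Of 8 mural markers, which mark pericytes and smooth muscle, 6 were higher against white and 4 against brown (12.2% and 8.71% of all genes). The largest differences were for Myh11 (3.93 ± 0.34) against white and Tagln (3.69 ± 0.37) against brown. Mural means were 10.56 to 11.17 in marrow-derived, 8.63 to 8.91 in white and 9.03 to 9.31 in brown arrays.

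Some adipocyte markers passed in the marrow-derived comparisons, and no leukocyte marker passed in any comparison. Of 6 measured adipocyte markers 2 were lower against white, Lipe (-1.90 ± 0.23) and Cidec (-1.76 ± 0.44), and 2 against brown, Lipe (-1.73 ± 0.23) and Pnpla2 (-1.64 ± 0.35). Their mean was 11.29 to 12.16 in marrow-derived, 12.85 to 13.01 in white and 12.60 to 12.73 in brown arrays. Of all genes, 13.6% were called lower against white and 11.7% against brown. For 5 of the 6 markers both marrow-derived arrays lay below both white arrays (35.8% of all genes). Against brown the same held for 5 of 6 (32% of all genes). Of 11 macrophage markers limma called 0 in each comparison, where 0, 0 and 3 had an unadjusted p under 0.05. Arrays did not overlap for 0 of these markers against white and for 5 in marrow-derived above brown (33% of all genes). In white above brown this held for all 11 (32.4% of all genes). The median differences of the macrophage markers were -0.50 against white, 1.61 against brown and 1.97 for white minus brown, with a wide spread between replicates. Their means were 8.91 to 11.46, 10.06 to 11.48 and 8.36 to 8.91 in marrow-derived, white and brown arrays. Of 6 other leukocyte markers 0 were called in any comparison (2, 0 and 2 at an unadjusted p under 0.05). The part of these cell types in the ligand values was not tested.

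The fat progenitor list, 8 markers of fibroblasts and adipocyte precursors, had 1 lower member against white, Dpt (-1.68 ± 0.31). Against brown 4 were higher, led by Dcn (3.83 ± 0.70) and Dpp4 (3.81 ± 0.64), and Dpt was lower. Of 5 mesothelial markers limma called 0 against white, where 0 had an unadjusted p under 0.05, and 3 were higher against brown, led by Upk3b (5.39 ± 0.68). Of 6 skeletal muscle markers 1 was higher and 3 lower against white, and 1 lower against brown. Brown adipocyte markers were lower than in brown arrays in 6 of 8 members, led by Ucp1 (-7.25 ± 0.98), and 1 of 8, Prdm16 (1.36 ± 0.36), was higher than in white arrays.

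The receptors of the ligands on endothelium were lowest in white adipocytes. Against white, 8 of 12 receptors and co-receptors were higher and 1 lower in marrow-derived arrays, with a median of 2.39. Among all genes, 12.2% were called higher and 13.6% lower. Tie1, an orphan relative of Tek, differed by 4.60 ± 0.52 (adjusted p = 0.00599). Tek read 12.23 and 12.49 in marrow-derived, 9.42 and 8.12 in white and 12.04 and 11.78 in brown arrays, and its difference from white was 3.59 ± 0.44 (adjusted p = 0.00691). Flt4, the receptor of Vegfc, differed by 3.51 ± 0.49, Flt1 by 3.48 ± 0.42, Kdr, the main signalling receptor of Vegfa, by 3.45 ± 0.34, and Aplnr by 2.69 ± 0.41. The lower receptor was Fgfr2 (-2.75 ± 0.48, adjusted p = 0.0145), while Fgfr1 did not pass (-1.72 ± 0.80, adjusted p = 0.183).

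Against brown arrays 1 of these receptors passed (20.4% of all genes did). Limma called 0 of 12 higher and 1 lower, Fgfr2 (-2.04 ± 0.48, adjusted p = 0.0387), which was also the only one of 12 with an unadjusted p under 0.05. The differences were 0.28 ± 0.34 for Kdr, 0.39 ± 0.42 for Flt1, 0.56 ± 0.49 for Flt4, 0.45 ± 0.44 for Tek, 0.20 ± 0.41 for Aplnr and -0.59 ± 0.80 for Fgfr1. White arrays were below brown arrays in 7 of 12 (5.34% of all genes), among them Tie1 (-3.67 ± 0.52), Kdr (-3.18 ± 0.34), Tek (-3.14 ± 0.44) and Flt1 (-3.08 ± 0.42).

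**Figure D4:**
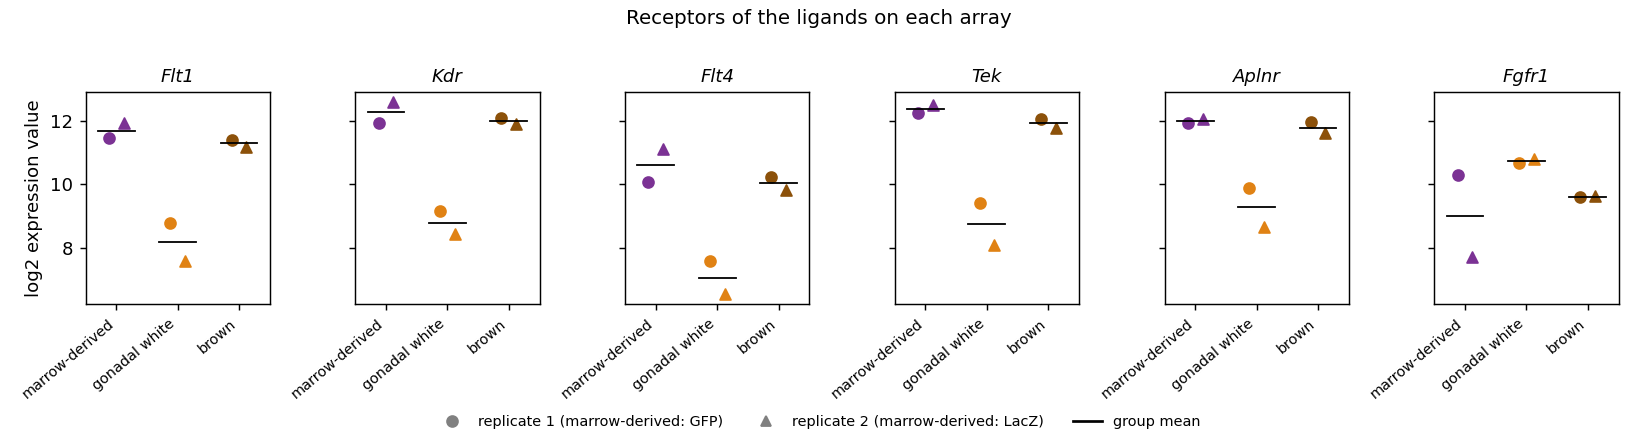
Log2 expression value (vertical axis) of 6 receptors on each array, with replicate 1 as circles, replicate 2 as triangles and group means as bars. Flt1, Kdr, Flt4, Tek and Aplnr are lowest on the white arrays, and Fgfr1 is lowest on the LacZ array at 7.75.

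Other vessel-directed ligands were mixed. Of 14 measured, 5 were higher and 3 lower than in white arrays, with a median of 0.66. Dll4, the Notch ligand of tip cells and arteries, differed by 4.65 ± 0.57, Efnb2, an arterial ephrin, by 3.73 ± 0.46 and Egfl7, secreted by endothelium, by 3.54 ± 0.41. Hgf, a growth factor made by adipocytes and stromal cells, was lower by contrast (-3.53 ± 0.43). Its LacZ value of 3.54 lies near the 25th percentile of that array (3.46), so this size is uncertain. Vegfd, the closest relative of Vegfc, was lower too and read 7.39 and 7.28 in marrow-derived, 10.17 and 10.68 in white and 8.15 and 8.79 in brown arrays (-3.10 ± 0.29 against white, adjusted p = 0.00427). Against brown, 2 were higher (Ang, 3.80 ± 0.73, and Cxcl12, 1.28 ± 0.19) and 2 lower (Vegfd, -1.14 ± 0.29, and Angptl6, -0.89 ± 0.15). White exceeded brown for 3 and lay below it for 4, with Efnb2 at -2.98 ± 0.46, Dll4 at -2.81 ± 0.57, Egfl7 at -2.77 ± 0.41 and Pdgfb at -2.60 ± 0.53.

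Inhibitors of angiogenesis were mixed against white and lay higher against brown. Of 9 measured, 2 were higher than in white arrays, the metalloprotease inhibitor Timp3 (2.24 ± 0.34) and the semaphorin Sema3f (1.79 ± 0.24), and 1 was lower, Serpinf1 (-1.42 ± 0.32), which encodes the antiangiogenic factor PEDF. Against brown, 3 were called higher and 0 lower: Thbs1 (3.63 ± 0.26), Thbs2 (1.52 ± 0.23) and Sema3f (1.45 ± 0.24). For all 9, both marrow-derived arrays lay above both brown arrays (33% of all genes), with a median difference of 1.25. Limma gave 5 of 9 with an unadjusted p under 0.05 against white and 4 of 9 against brown. The thrombospondins also separated white from brown arrays, where Thbs1 read 10.48 and 10.41 against 6.09 and 5.85 (4.48 ± 0.26, adjusted p = 0.00472). In all, 4 inhibitors were higher and 1 lower in white than in brown arrays.

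Hypoxia is a textbook inducer of Vegfa, through Hif1a and Epas1, which prolyl hydroxylases of the Egln family and Vhl keep low. Of 9 hypoxia regulators 1 was called against white, Vhl (-1.12 ± 0.26, adjusted p = 0.0323). Limma called 0 against brown, where 2 had an unadjusted p under 0.05 and the largest difference was -1.70 ± 0.76 for Egln3 (adjusted p = 0.178). White lay below brown in 1, Egln1 (-0.94 ± 0.19). Hif1a and Epas1 did not pass in any comparison.

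Genes that hypoxia commonly induces went both ways. Against white, 2 of 12 were higher, Ddit4 (1.67 ± 0.40) and Ndrg1 (1.43 ± 0.23), and 3 lower, Bnip3 (-1.47 ± 0.29), Higd1a (-1.39 ± 0.16) and Ldha (-0.99 ± 0.19). Against brown, 1 was higher (P4ha1, 1.02 ± 0.23) and 5 lower, led by Higd1a (-1.76 ± 0.16), Pgk1 (-1.37 ± 0.23), Pdk1 (-1.32 ± 0.19) and Bnip3 (-1.24 ± 0.29). White and brown differed in 1, Pdk1 (-1.08 ± 0.19).

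The coactivator Ppargc1a and the nuclear receptor Esrra form a second textbook route to Vegfa, and PPAR receptors drive Angptl4. Of 7 genes of this group 4 were lower than in white arrays and 0 higher, with 5 at an unadjusted p under 0.05 in limma. Ppargc1a read 4.73 and 3.40 in marrow-derived, 7.18 and 7.57 in white and 9.0 and 9.40 in brown arrays (-3.31 ± 0.47 against white, adjusted p = 0.00907). The LacZ value lies under the 25th percentile of its array (3.46), so the sizes for Ppargc1a are uncertain. Ppara (-1.69 ± 0.46), Rxra (-1.25 ± 0.22) and Esrra (-1.11 ± 0.20) were the other lower ones. Against brown 4 were lower, Ppara (-5.82 ± 0.46), Ppargc1a (-5.14 ± 0.47), Ppargc1b (-3.67 ± 0.19) and Esrra (-2.20 ± 0.20), and 0 higher, with 4 at an unadjusted p under 0.05. Pparg, the master regulator of adipocytes, did not pass (-0.13 ± 0.20 and -0.22 ± 0.20). White lay below brown in 3, Ppara (-4.13 ± 0.46), Ppargc1b (-3.02 ± 0.19) and Esrra (-1.10 ± 0.20).

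Lipoprotein lipase (Lpl) is the enzyme that Angptl4 inhibits. It read 12.95 and 12.76 in marrow-derived, 13.35 and 13.48 in white and 13.20 and 13.19 in brown arrays and was not called against white (-0.56 ± 0.16, adjusted p = 0.0591). Of 5 measured genes of this group, 1 was higher against white, Gpihbp1, the endothelial anchor of the enzyme (3.48 ± 0.34, adjusted p = 0.00453), and 1 lower, its maturation factor Lmf1 (-0.93 ± 0.20). Against brown 2 were lower, Angptl8 (-3.67 ± 0.65) and Lmf1 (-1.30 ± 0.20). White differed from brown in 1, Gpihbp1 (-2.40 ± 0.34).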

How the data were processed

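The deposited table gives log2 values of each probe set on 6 arrays kept separate. RMA and Partek are named per the submitters' processing notes, without versions. RMA makes array distributions alike and sums up probes on the log2 scale, so global shifts between samples are removed, and it gives no detection call. The log base was taken from the values. Genome build and scan dates are not given in the sources used here, so no batch could be tested.

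Of 43057 probe sets, 33565 had 1 gene symbol, 857 several and 8635 were unnamed here; those with several named no gene. Symbols were checked through gene IDs against the RefSeq table (33376 matched, 0 updated). List members with no named probe set were not analysed here.

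For each gene, group means over all 6 arrays were fitted (limma 3.58.1, R 4.3.3; contrasts, empirical Bayes, 3 residual and 2.35 prior degrees of freedom), two-sided, with Benjamini-Hochberg adjustment over 17720 genes and a threshold of 0.05. The fit was tested on simulated data. Intervals at 95% use the same fit. The number of arrays, 2 per group, limits the precision. Alternatives were the 2 groups compared alone, a replicate block, median centring, a filter at a mean of 5, the mean of probe sets, every probe set, a variance trend, no moderation, and leaving out each array.

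The ligands and gene lists were chosen with earlier results of these data known. Named genes are all 10 ligands, receptors of the ligands, and up to 4 called members of each pathway list by size (or the member with the largest difference). For each called ligand the 3 genes with the most similar profile are also named. Genes of the marker lists, and others that complete a count of 5 or fewer, were chosen after their values were seen.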

Additional observations from a re-analysis of the deposited data

How the results depend on the processing

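Counts of called ligands stayed within 1.5 times in most of the 14 settings, and the exceptions follow. Against white, 7 ligands became 0 without moderation (6 at an unadjusted p under 0.05) and 4 to 8 with 1 array left out. Against brown, 6 became 1 without moderation and 0 to 7 with 1 array left out. For white minus brown, 1 became 0 without moderation, 0 with the filter at a mean of 5, which removes Fgf2 itself (2 at an unadjusted p under 0.05 each), and 0 to 1 with 1 array left out. Counts over all genes moved too. Against white 4579 became 2727 with the 2 groups alone, 8344 with every probe set (more features tested), 555 without moderation and 1749 to 4281 with 1 array left out. Against brown 3611 became 6177, 961 and 300 to 3121 with every probe set, without moderation and with 1 array left out. White minus brown had 1632, which became 2711 and 0 (3880 at an unadjusted p under 0.05), and 5 to 2251. Where a setting keeps all samples and genes, the cause was not tested.

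Median centring moved the median of all genes from -0.072 to -0.241 against white and from 0.024 to -0.170 against brown. The share of calls that were higher went from 47.4% to 36.6% and from 42.7% to 28.5%, and no ligand changed direction. Uncalled values that reversed were Angptl4 against brown (-0.12) and Vegfa in white minus brown (0.046) with the mean of probe sets. With 1 array left out the range was -0.28 to 0.16 for Angptl4 against white. In white minus brown it was -0.050 to 0.61 for Pgf and -0.012 to 0.13 for Apln.

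Samples share replicate numbers, and same-numbered deviations correlated at 0.21, -0.004 and 0.28 for the 3 pairs of groups. With 2 arrays per group the deviations are mirror images, so these values can neither show nor exclude pairing. The main fit did not use the numbers. With the number as a replicate block, 7, 5 and 1 ligands were called, and Apln against brown was lost (adjusted p = 0.0548). Against all genes the block gave 4028, 3066 and 1264 calls. Signal near background limits Fgf2 and may limit Apln on the white and brown arrays, and signal near the top of the arrays limits Angptl4.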

Other observations

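Genes with profiles most like each called ligand were sought among 8262 named genes whose values ranged over at least 1 on the 6 arrays. With 6 points in 3 groups many genes reach a high Pearson r, so these are descriptions. Vegfa was closest to Aifm2 (r = 0.99998), Vegfb (0.999) and Akt2 (0.998), and Vegfb to Vegfa, Aifm2 and Zfp322a (0.999 each). Angpt1 was closest to Mtx3 (0.999), Ndufs5 (0.998) and Tcaim (0.998), of which Ndufs5 encodes a subunit of respiratory complex I. Angpt2 was closest to Snai1 (0.998), a repressor of epithelial genes, Myef2 (0.998) and Hid1 (0.997). For Pgf they were Sytl2 (0.996), the fibronectin receptor subunit Itga5 (0.996) and Olfml2b (0.995). For Apln they were Dnah8 (0.998), the glycine transporter Slc6a9 (0.994) and the integrin Itga8 (0.994). Fgf2 was closest to Atg13 (0.997), Smim27 (0.996) and Fbxo45 (0.995). Among the ligands themselves, Angpt2 correlated with Pgf at 0.977 and with Apln at 0.932.

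Genes that release or degrade the ligands were measured in 7 of 8 cases. Against white, 1 was higher, Fgfbp3, which releases fibroblast growth factors from the matrix (1.87 ± 0.25, adjusted p = 0.00803). Another, the peptidase Mme, was lower and read 7.48 (GFP) and 4.26 (LacZ), 10.33 and 10.01 on white and 10.94 and 10.78 on brown arrays (-4.30 ± 1.00, adjusted p = 0.0324). Mme was also the 1 gene called against brown (-4.99 ± 1.00, adjusted p = 0.027). Mmp9, a matrix protease that frees stored Vegfa, read 11.24 (GFP) and 6.96 (LacZ) and was not called (1.23 ± 1.37 against white). In white minus brown limma called 0 of 7, where 1 had an unadjusted p under 0.05. That list's largest difference there was 2.89 ± 1.24 for Hpse (adjusted p = 0.222).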
